A study of Mus musculus with 15 samples.

Results

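The clustered Hox genes were taken as every gene whose symbol is Hox followed by a cluster letter (a, b, c or d) and a paralog number. The deposited tables listed 29 of these among 17752 genes, out of 39 in the GENCODE annotation of the mouse genome (mm10), and a gene missing from a mouse's table was set to 0. They were measured by RNA sequencing in tissue of 15 female C57BL/6 mice (C57BL/6JOlaHsd in the methods of the study) aged 8 weeks, labelled as intestinal and given as ileum in the methods of the study. All mice were gavaged every 2 days over 10 days. Of these, 5 mice received water, 5 received 200 mg/kg of low molecular weight proanthocyanidins (low PAC) and 5 received 200 mg/kg of high molecular weight proanthocyanidins (high PAC). PAC are plant polymers of flavanol units, here from grape. The labels call the larger polymer high, whereas the methods of the study describe the larger fraction given to mice as one of medium mean degree of polymerization, and the label's name is used here. By the methods all groups ate the same purified diet, each library came from 1 mouse, and where along the ileum each piece was cut is not given in the sources used here.

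Hox genes encode homeodomain transcription factors that tell cells where along the head-to-tail axis they lie. Mammals carry them in 4 clusters, and within a cluster the genes lie in the order in which they are used along the body: low paralog numbers act towards the head and high paralog numbers towards the tail. In the adult gut they remain active mostly in the muscle layers, connective tissue and enteric nervous system, and a Hox pattern that changes along the intestine persists there. Retinoic acid and the CDX homeodomain proteins switch Hox genes on in the embryo, Polycomb proteins keep unused ones silent, and TALE proteins of the PBX and MEIS families bind DNA together with HOX proteins.

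The 250 bases before the transcription start were read for 3 members to show what lies at the promoters of the genes described here, from RefSeq sequences of GRCm38.p6, each written 5′ to 3′ on the strand of its gene. Hoxb8 and Hoxb4 are Hoxb genes whose level differed between the groups at an unadjusted p under 0.05, and Hoxa5 varied with the smooth muscle signal of the sample. Capitals mark the letters TTTAT or their reverse complement ATAAA, the core that CDX proteins recognize.
Hoxb8: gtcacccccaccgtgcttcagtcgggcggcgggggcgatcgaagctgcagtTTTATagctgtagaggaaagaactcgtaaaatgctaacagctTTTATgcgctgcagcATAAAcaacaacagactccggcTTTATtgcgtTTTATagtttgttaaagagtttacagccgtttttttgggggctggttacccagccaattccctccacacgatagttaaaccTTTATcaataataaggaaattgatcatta
Hoxb4: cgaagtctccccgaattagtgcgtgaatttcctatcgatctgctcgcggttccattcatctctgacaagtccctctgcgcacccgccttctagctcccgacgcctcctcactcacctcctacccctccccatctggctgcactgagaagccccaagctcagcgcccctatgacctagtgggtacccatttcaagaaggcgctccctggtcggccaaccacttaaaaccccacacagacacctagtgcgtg
Hoxa5: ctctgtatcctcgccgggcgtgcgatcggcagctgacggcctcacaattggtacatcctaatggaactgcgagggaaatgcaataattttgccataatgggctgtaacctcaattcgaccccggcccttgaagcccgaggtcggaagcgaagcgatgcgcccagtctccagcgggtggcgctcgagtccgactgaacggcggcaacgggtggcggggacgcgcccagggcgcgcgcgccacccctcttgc
The Hoxb8 window (chr11:96281655-96281904, plus strand) held 6 matches to the core. The Hoxb4 window (chr11:96318017-96318266, plus strand) and the Hoxa5 window (chr6:52204588-52204837, minus strand) held 0. A promoter was found for 16 of the 29 members, with 17 windows because Hoxa10 has 2. No promoter was found for Hoxb3, Hoxb5, Hoxb6, Hoxb7, Hoxb9, Hoxc8 or Hoxc9, whose level also differed from water at an unadjusted p under 0.05. The core was on either strand in 7 of the 17 windows, against 37.3% of 32851 promoters of the same length. Hoxb8 had the most matches of any window, and Hoxd4, with no unadjusted p under 0.05 between groups, had 4. The retinoid receptor motif AGGTCA, searched with its reverse complement TGACCT, was in 6 of the 17 windows, that of Hoxb4 included, and in 14.0% of all promoters. The letters TATAAA or TTTATA, which overlap the CDX core, were in 3 of the 17 windows and in 12.4% of all. A match is a description of these letters and not a measured binding site.

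Libraries held 15963086 to 17903886 estimated read pairs in genes and listed 16138 to 16392 genes, and no 2 tables held the same values. The 7 markers of the distal ileum (among them the bile acid binding protein Fabp6 and transporter Slc10a2) were all listed and together reached 5297 to 11874 FPKM (read fragments scaled to transcript length and to the mapped reads of the library). Scores were made per mouse as the mean of log2(FPKM + 0.1) over a marker list, each gene centred on its mean over the 15 mice. The score of the 7 distal markers was subtracted from the score of 11 genes typical of duodenum and jejunum to give a position score, high where a piece looks proximal. Water mice 4 and 5 had the highest position scores of all mice, 0.69 and 1.12, against -1.18 to 0.38 in the other 13. Water mice 1 and 3 had the lowest scores of 13 smooth muscle markers, -1.29 and -1.47, against -0.48 to 0.52 in the other 13, and also the lowest mesothelium scores (-2.49 and -2.47). The B cell score was split within every group, with 2 or 3 mice at 1.42 or more and the rest at -1.72 or less. In a bulk piece of tissue, fewer cells of a type and less RNA per cell cannot be told apart.

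The ileum expressed the Hoxb cluster most, then Hoxc, then Hoxa, then Hoxd, in 13 of 15 mice. In water mice 4 and 5 the sum of Hoxc was above that of Hoxb, at 26.79 against 23.79 FPKM and 20.35 against 19.56 FPKM. FPKM summed over the 9 listed Hoxb genes (chromosome 11) was 35.7 ± 14.0 in water mice (SD, n = 5, as for all means here), against 20.8 ± 4.33 for the 6 Hoxc genes (chromosome 15), 6.06 ± 1.66 for the 9 Hoxa genes (chromosome 6) and 2.58 ± 0.53 for the 5 Hoxd genes (chromosome 2). The members that were not listed in any mouse were Hoxa11, Hoxa13, Hoxb13, Hoxc11, Hoxc12, Hoxc13, Hoxd1, Hoxd11, Hoxd12 and Hoxd13. All but Hoxd1 carry the highest paralog numbers, which act in the hindgut, the limbs and the urogenital tract. The lowest FPKM listed for any gene was 0.01, so an unlisted gene was not detectable at this depth rather than shown to be off.

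Within Hoxb the highest levels lay towards the tail end of the cluster, though not in strict order. Over all 15 mice the mean FPKM ran from 2.47 for Hoxb2 through 6.01 for Hoxb3, 4.62 for Hoxb4, 6.21 for Hoxb5, 10.5 for Hoxb6, 9.16 for Hoxb7 and 4.66 for Hoxb8 to 13.5 for Hoxb9, the most abundant Hox gene of the data. Hoxb1, a hindbrain gene at the head end, was listed in 1 mouse at 0.03. In water mice alone the order differed, and Hoxc6 had the highest mean. Among water mice Hoxb9 (6.8 ± 4.98), Hoxb6 (6.7 ± 2.76) and Hoxb7 (5.73 ± 2.97) differed from each other by less than any of their SDs. Hoxc6 (8.95 ± 2.34) was above Hoxb9, Hoxb6 and Hoxc8 (7.31 ± 1.51) by less than its own SD, and above Hoxb7 by more than either SD. In Hoxc the level was in paralogs 6 and 8, with means over 15 mice of 9.91 and 9.07, against 3.04 for Hoxc4, 1.25 for Hoxc5, 1.00 for Hoxc9 and 1 mouse at 0.03 for Hoxc10. In Hoxa it was highest for Hoxa5 (2.56), Hoxa3 (1.49) and Hoxa7 (1.18). In Hoxd it was highest for Hoxd8 (1.28) and Hoxd4 (1.06).

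**Figure D1:**
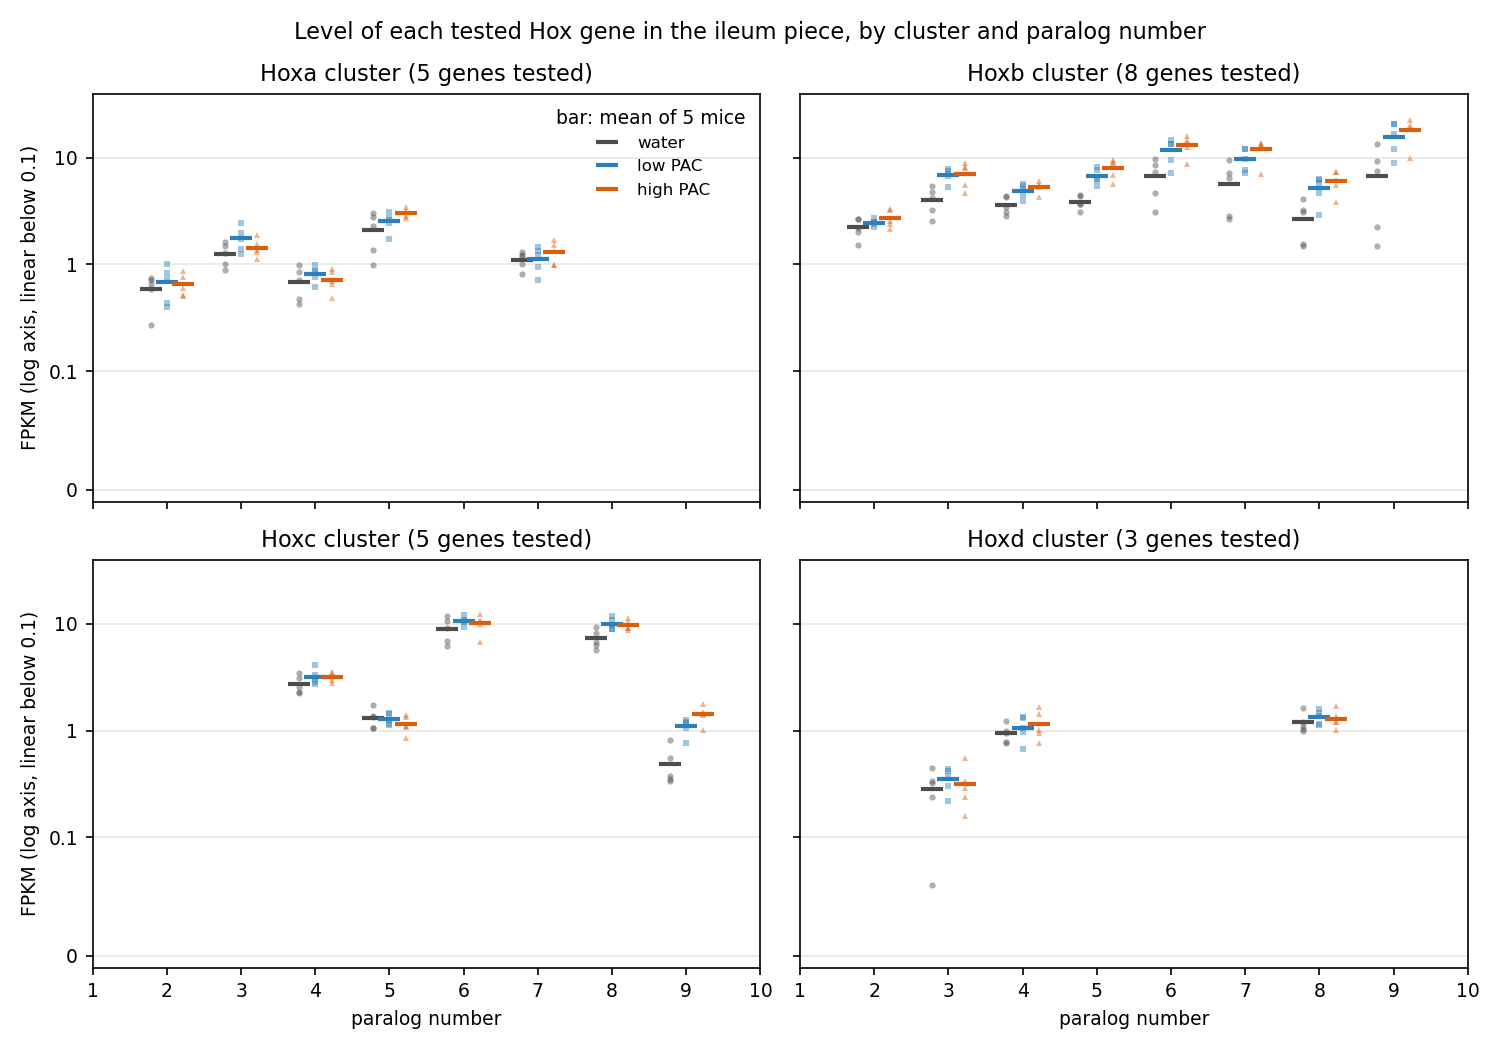
FPKM of each of the 21 Hox genes with enough counts to be tested (y axis, logarithmic, linear below 0.1) by paralog number (x axis), 1 panel per cluster, with 1 point per mouse and a bar at the mean of the 5 mice of each group. Hoxb9, Hoxb6, Hoxc6, Hoxb7 and Hoxc8 had the highest means over the 15 mice, and Hoxd3 had the lowest, 0.317 FPKM.

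Some values carry reads that other transcripts could have given. Whether the libraries kept the strand is not given in the sources used here, and in the annotation the antisense gene Hoxb5os lies over Hoxb5 and Hoxb6, Hoxb3os and Gm11536 over parts of Hoxb2 and Hoxb3, Hoxaas3 over Hoxa3, Hoxa4, Hoxa5 and Hoxa6, and Hoxd3os1 over Hoxd8. The transcribed region of Hoxc5 (chr15:102967443-103017429) spans Hoxc9, Hoxc8 and Hoxc6, that of Hoxa3 spans Hoxa4, Hoxa5 and Hoxa6, and that of Hoxd3 spans Hoxd4, so reads may have been split between neighbours. Levels of these members are uncertain to that extent. Hoxb4, Hoxb7, Hoxb8 and Hoxb9 overlap no other gene of that annotation.

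Of the 29 members, 21 had enough counts to be tested (edgeR quasi-likelihood test on rounded estimated counts, all 15 mice in 1 model of the 3 groups, p adjusted over 14386 genes). The other 8, among them Hoxa6, Hoxa9, Hoxa10, Hoxb1, Hoxc10, Hoxd9 and Hoxd10, reached at most 0.55 FPKM in any mouse. No member passed an adjusted p of 0.05 in any of the 3 comparisons. Where a gene is said to have the higher or lower mean in a group, the sign of its edgeR fold change is meant. High and low PAC were both set against the same 5 water mice, so the 2 comparisons are not independent of each other.

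In high PAC against water, 9 of the 21 members had an unadjusted p under 0.05 and all 9 had the higher mean in high PAC, against 14.8% of all genes tested in either direction and 4.37% with the higher mean in high PAC. They were Hoxb3 to Hoxb9, Hoxc8 and Hoxc9. The share of genes with the higher mean depends on scaling and was 10.5% with upper-quartile scaling, where 9 members also passed, all higher in high PAC. With 1 mouse left out, 8 of the 9 kept an unadjusted p under 0.05 in 15 of 15 fits and Hoxc8 in 11. The lowest adjusted p of a member was 0.0756, reached by Hoxb5 and Hoxc9, while 2 genes of the 14386 (0.0139%) had an adjusted p under 0.05. The median log2 fold change of the members was 0.20, beside 0.0024 over all genes tested, and 19 of 21 members had a fold change above 0, beside 50.5% of genes. Permuting the 10 mice in all possible ways on the scale log2(FPKM + 0.1) gave an exact, two-sided p, at best 0.0079, the smallest the 252 splits allow. It was under 0.05 for 10 members, all higher in high PAC, beside 17.5% of genes in either direction and 14.2% with the higher level in high PAC. FPKM of every high PAC mouse lay above that of every water mouse for 2 members, Hoxb5 and Hoxc9, beside 3.99% of genes.

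In low PAC against water, the 9 members with an unadjusted p under 0.05 were again Hoxb3 to Hoxb9, Hoxc8 and Hoxc9, all with the higher mean in low PAC, against 3.61% of all genes in either direction and 1.40% with the higher mean in low PAC. With 1 mouse left out, 8 of them kept it in 15 of 15 fits and Hoxb7 in 10. Their adjusted p was 0.976, which is also the lowest of any gene in that comparison, where 0 of 14386 genes passed and 520 had an unadjusted p under 0.05. DESeq2 called 2 genes there, neither of them a Hox gene. The median log2 fold change was 0.28 for the members and -0.01 for all genes, and 19 of 21 members were above 0, beside 45.5% of genes. The exact permutation test gave a p under 0.05 for 8 members, beside 4.74% of genes in either direction and 3.48% with the higher level in low PAC. That count was 3 without low PAC mouse 3, 4 without low PAC mouse 1 or 2 and 5 without low PAC mouse 4 or water mouse 4 or 5. The ranges lay apart for 1 member, Hoxb5, beside 0.494% of genes.

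By cluster, the median log2 fold change in high PAC against water was 0.91 over the 8 Hoxb genes tested, 0.13 over 5 Hoxc genes, 0.11 over 5 Hoxa genes and 0.10 over 3 Hoxd genes. In low PAC against water it was 0.73, 0.20, 0.21 and 0.12. Summed FPKM of Hoxb was 35.7 ± 14.0 in water, 63.5 ± 13.9 in low PAC and 72.4 ± 15.2 in high PAC, and Hoxb took 53.3% ± 12.9, 62.9% ± 5.13 and 66.0% ± 6.76 of all Hox FPKM. Hoxc sums were 20.8 ± 4.33, 26.3 ± 2.66 and 25.7 ± 3.50. Hoxa and Hoxd sums ranged over 4.18 to 9.50 and 2.09 to 4.25 FPKM across all mice.

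**Figure D2:**
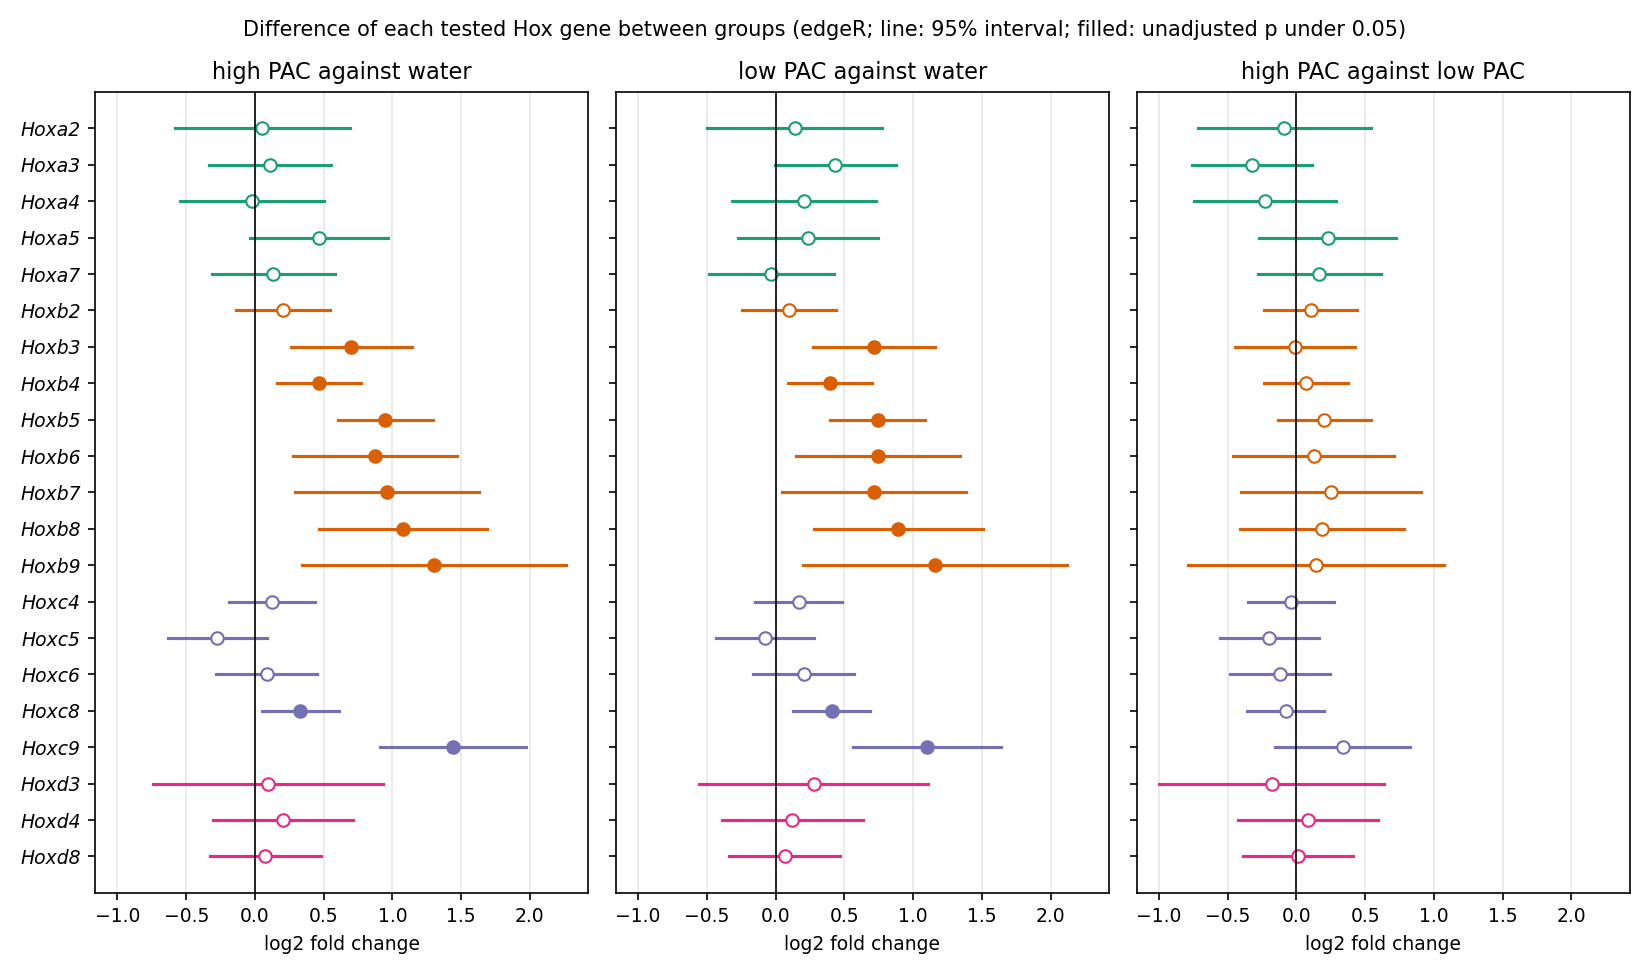
Log2 fold change of each tested Hox gene (x axis) with its 95% interval, in high PAC against water, low PAC against water and high PAC against low PAC, coloured by cluster, filled where the unadjusted edgeR p was under 0.05. Hoxb3 to Hoxb9, Hoxc8 and Hoxc9 are filled in both comparisons with water, none is filled between the PAC groups, and the 2 comparisons with water share their 5 water mice.

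Hoxb5 (chr11:96303336-96306121, plus strand), a gene of enteric neural crest and blood stem cells, was the Hoxb member with the lowest p. Its FPKM was 3.71, 4.39, 4.46, 3.72 and 3.12 in water mice 1 to 5, 7.62, 8.16, 6.14, 6.36 and 5.44 in low PAC mice 1 to 5 and 9.06, 5.66, 6.94, 8.87 and 9.54 in high PAC mice 1 to 5. Every PAC mouse of either group was above every water mouse. Group means were 3.88 ± 0.554, 6.74 ± 1.12 and 8.01 ± 1.65. The log2 fold change was 0.95 ± 0.16 (SE) in high PAC against water (adjusted p = 0.0756, exact permutation p = 0.0079) and 0.74 ± 0.16 in low PAC against water (adjusted p = 0.976, exact permutation p = 0.0079). Hoxc9 (chr15:102976439-102985099, plus strand), which sets thoracic motor neuron identity in the spinal cord, had the largest fold change in high PAC in the fit of all mice without a covariate. That of Hoxb9 was larger without water mice 1 and 3 (1.59 against 1.43) and with the smooth muscle score as a covariate (1.53 against 1.48). FPKM of Hoxc9 was 0.38, 0.82, 0.56, 0.34 and 0.35 in the water mice, 1.18, 1.06, 1.21, 1.26 and 0.77 in the low PAC mice and 1.40, 1.01, 1.49, 1.44 and 1.79 in the high PAC mice. All high PAC mice were above all water mice, and 4 of 5 low PAC mice were. In log2 terms Hoxc9 differed from water by 1.44 ± 0.25 in high PAC (adjusted p = 0.0756, exact permutation p = 0.0079) and 1.10 ± 0.25 in low PAC (adjusted p = 0.976, exact permutation p = 0.0159). It rests on few reads, 10 to 52 estimated pairs a mouse. DESeq2 and limma gave both genes an adjusted p under 0.05 in high PAC against water.

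Within Hoxb, the tail end genes Hoxb9 and Hoxb8 had the largest fold changes against water with all mice in the fit. Without water mice 4 and 5 that of Hoxb5 was larger than both, 0.82 against 0.72 and 0.70 in high PAC and 0.61 against 0.58 and 0.51 in low PAC. Hoxb9 (chr11:96271457-96276595), which patterns the thorax, had an FPKM of 7.57, 13.38, 9.32, 2.25 and 1.48 in water mice 1 to 5. The low PAC mice had 20.81, 20.77, 16.53, 11.97 and 9.01 and the high PAC mice 18.63, 10.05, 20.25, 22.68 and 18.53. Water mice 4 and 5 were far below all others, and 4 of 5 high PAC mice and 3 of 5 low PAC mice were above the highest water mouse. Hoxb9 had a log2 fold change of 1.30 ± 0.45 in high PAC (adjusted p = 0.248, exact permutation p = 0.0159) and 1.16 ± 0.45 in low PAC (adjusted p = 0.976, exact permutation p = 0.0397). Hoxb8 (chr11:96281905-96285315), known for holding myeloid progenitors undifferentiated, had 3.09, 4.08, 3.23, 1.57 and 1.49 in water. It had 5.79, 6.24, 6.33, 4.66 and 2.93 in low PAC and 5.61, 3.84, 6.19, 7.40 and 7.41 in high PAC. The same water mice 4 and 5 were lowest, and 4 of 5 mice of each PAC group were above the highest water mouse. Against water, the log2 fold change was 1.08 ± 0.29 in high PAC (adjusted p = 0.185, exact permutation p = 0.0159) and 0.89 ± 0.29 in low PAC (adjusted p = 0.976, exact permutation p = 0.0318).

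Hoxb7 (chr11:96286623-96290162), active in the collecting ducts of the kidney, was also lowest in water mice 4 and 5. Its FPKM was 6.43, 9.58, 7.16, 2.83 and 2.65 in water, 12.09, 12.21, 9.69, 7.17 and 7.63 in low PAC and 12.22, 7.04, 13.55, 13.89 and 13.27 in high PAC. High PAC mouse 2 was well below the other 4 mice of its group and within the water range. In log2 terms Hoxb7 differed from water by 0.96 ± 0.32 in high PAC (adjusted p = 0.232, exact permutation p = 0.0238) and 0.71 ± 0.32 in low PAC (adjusted p = 0.976, exact permutation p = 0.0397). Hoxb6 (chr11:96292476-96301569), a gene of lateral plate mesoderm, was 7.40, 9.79, 8.55, 4.65 and 3.13 in water, 13.58, 14.63, 9.60, 13.54 and 7.13 in low PAC and 12.61, 8.69, 13.66, 16.08 and 14.77 in high PAC. Water mice 4 and 5 were again lowest, and the ranges overlapped in both comparisons. Hoxb6 had a log2 fold change of 0.87 ± 0.28 in high PAC (adjusted p = 0.226, exact permutation p = 0.0159) and 0.75 ± 0.28 in low PAC (adjusted p = 0.976, exact permutation p = 0.0556).

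Nearer the head end, Hoxb4 and Hoxb3 had smaller fold changes in high PAC than Hoxb5 to Hoxb9, whereas in low PAC that of Hoxb3 was as large as that of Hoxb7. Differences between members were not tested. Hoxb4 (chr11:96318267-96321638), which expands blood stem cells when overexpressed, was 3.47, 4.36, 4.28, 2.83 and 3.10 in water, 5.65, 5.47, 5.07, 4.48 and 3.94 in low PAC and 5.58, 4.26, 5.27, 5.47 and 6.07 in high PAC. In each PAC group 4 of 5 mice were above the highest water mouse. Against water, the log2 fold change was 0.47 ± 0.14 in high PAC (adjusted p = 0.214, exact permutation p = 0.0238) and 0.39 ± 0.14 in low PAC (adjusted p = 0.976, exact permutation p = 0.0318). Hoxb3 (chr11:96323326-96347930), a hindbrain and pharyngeal gene, was 4.22, 5.39, 4.77, 3.27 and 2.56 in water, 7.89, 7.49, 7.11, 6.81 and 5.29 in low PAC and 7.99, 4.72, 5.56, 8.15 and 8.93 in high PAC. High PAC mouse 2 and low PAC mouse 5 were within the water range and all other PAC mice above it. In log2 terms Hoxb3 differed from water by 0.70 ± 0.21 in high PAC (adjusted p = 0.202, exact permutation p = 0.0238) and 0.71 ± 0.21 in low PAC (adjusted p = 0.976, exact permutation p = 0.0159). Hoxb2, a regulator of hindbrain segments, had means of 2.22 ± 0.491, 2.47 ± 0.17 and 2.73 ± 0.497 with overlapping ranges, and log2 fold changes of 0.20 (95% interval -0.14 to 0.55) and 0.10 (-0.24 to 0.44).

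**Figure D3:**
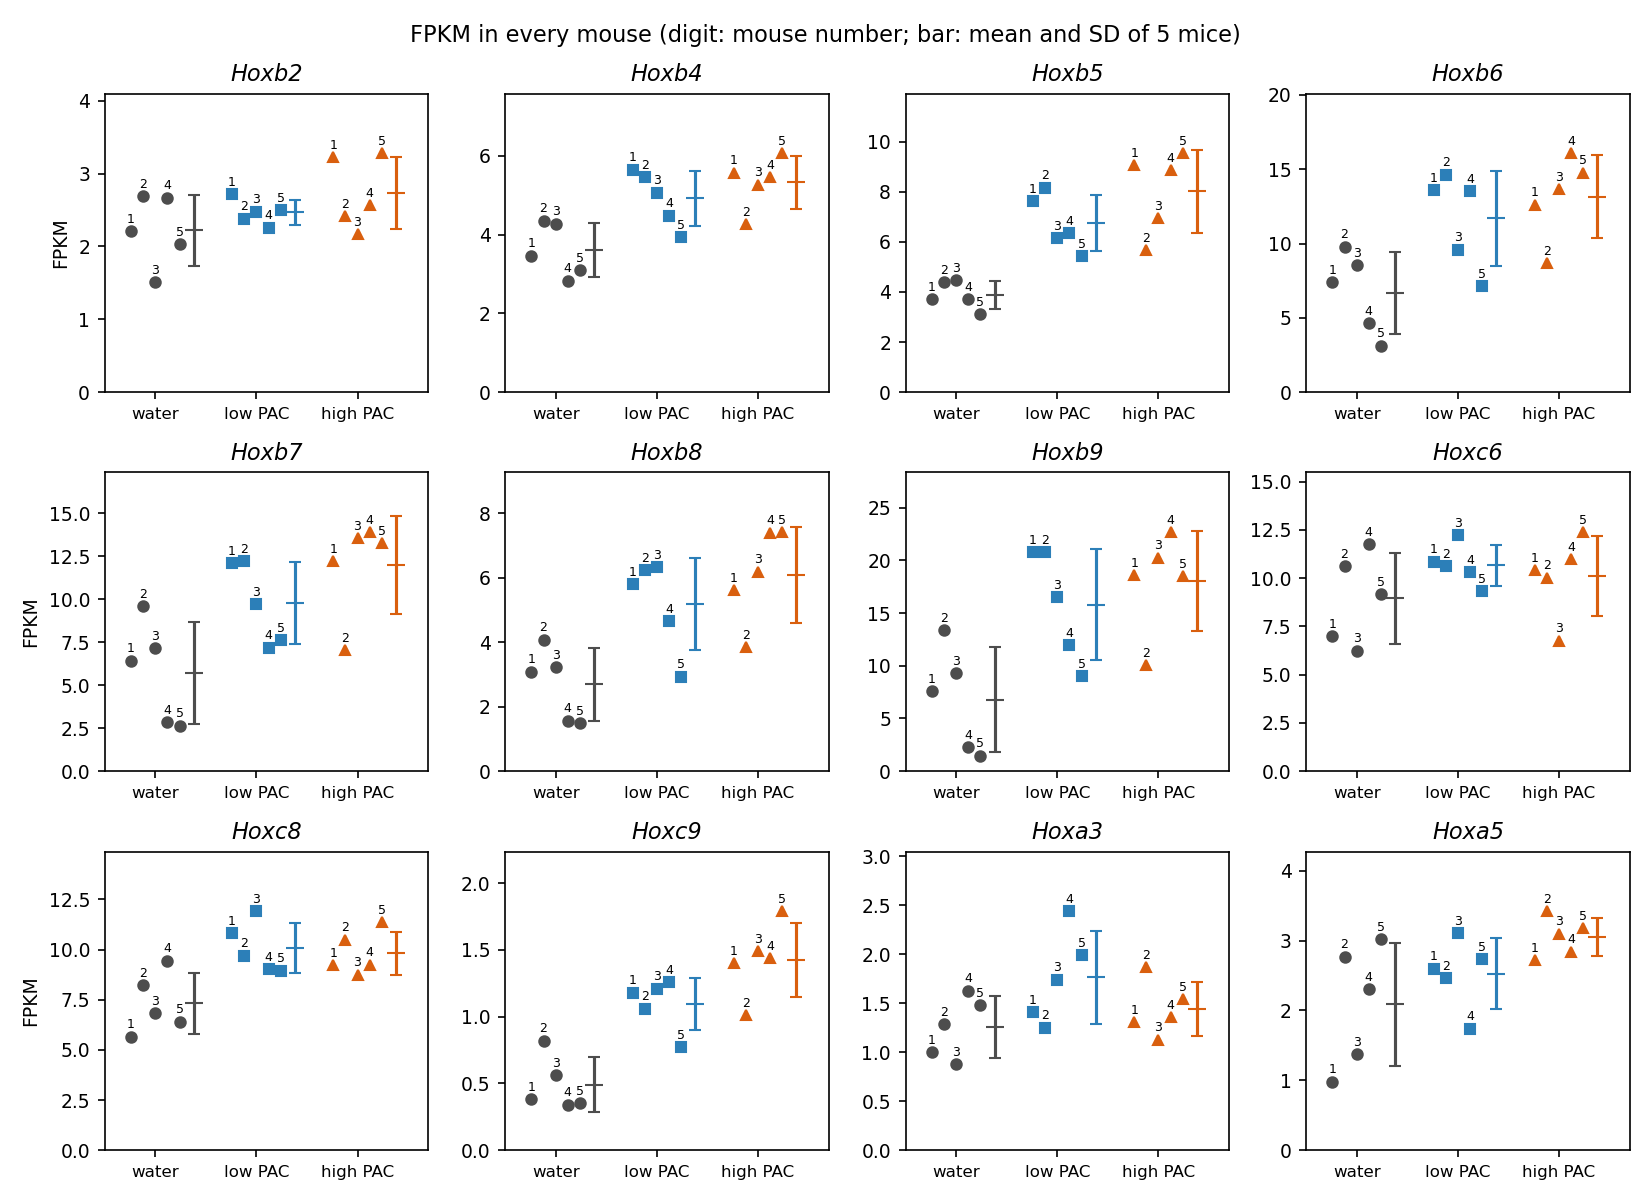
FPKM (y axis, from 0) of 12 Hox genes in every mouse, numbered 1 to 5 within the water, low PAC and high PAC groups, with the mean and SD of each group at its right. Water mice 4 and 5 are lowest for Hoxb6, Hoxb7, Hoxb8 and Hoxb9, the PAC mice lie above all water mice for Hoxb5, and water mice 1 and 3 are lowest for Hoxa5.

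Outside Hoxb, Hoxc8 (chr15:102990607-102994111), which sets motor neuron pools at the level of the forelimb, was 5.66, 8.22, 6.82, 9.45 and 6.41 in water, 10.82, 9.69, 11.91, 9.03 and 8.94 in low PAC and 9.22, 10.50, 8.74, 9.25 and 11.36 in high PAC. Water mouse 4, low for Hoxb, was the highest water mouse here. Hoxc8 had a log2 fold change of 0.33 ± 0.13 in high PAC (adjusted p = 0.279, exact permutation p = 0.0318) and 0.41 ± 0.13 in low PAC (adjusted p = 0.976, exact permutation p = 0.0238). Hoxc6 (chr15:102998257-103011881), the most abundant Hoxc gene, was 6.98, 10.61, 6.24, 11.77 and 9.16 in water, 10.86, 10.63, 12.22, 10.32 and 9.31 in low PAC and 10.41, 10.02, 6.76, 10.98 and 12.38 in high PAC. Its ranges overlapped in both comparisons. Against water, the log2 fold change was 0.09 ± 0.17 in high PAC (adjusted p = 0.831, exact permutation p = 0.405) and 0.20 ± 0.17 in low PAC (adjusted p = 0.976, exact permutation p = 0.167). Hoxc4, which also acts in B cells on the antibody diversifying enzyme AID, and Hoxc5 had log2 fold changes of 0.13 and -0.28 in high PAC and 0.17 and -0.08 in low PAC, with all intervals including 0.

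In Hoxa, Hoxa5 (chr6:52201754-52204587, minus strand), needed in the mesenchyme of lung and gut, was 0.98, 2.77, 1.37, 2.30 and 3.02 in water, 2.60, 2.46, 3.11, 1.74 and 2.73 in low PAC and 2.72, 3.42, 3.10, 2.84 and 3.18 in high PAC. Water mice 1 and 3 were lowest and water mice 4 and 5 were not low. In log2 terms Hoxa5 differed from water by 0.47 ± 0.24 in high PAC (adjusted p = 0.372, exact permutation p = 0.0397) and 0.24 ± 0.24 in low PAC (adjusted p = 0.976, exact permutation p = 0.294). Hoxa3 (chr6:52169062-52213336, minus strand), required for thymus and parathyroid, was 1.00, 1.29, 0.88, 1.63 and 1.48 in water, 1.41, 1.25, 1.74, 2.44 and 1.99 in low PAC and 1.31, 1.87, 1.13, 1.36 and 1.54 in high PAC. The highest value was that of low PAC mouse 4, and the ranges overlapped. Hoxa3 had a log2 fold change of 0.11 ± 0.21 in high PAC (adjusted p = 0.822, exact permutation p = 0.325) and 0.43 ± 0.21 in low PAC (adjusted p = 0.976, exact permutation p = 0.0873). Hoxa2, Hoxa4 and Hoxa7 had log2 fold changes from -0.02 to 0.13 in high PAC and from -0.03 to 0.21 in low PAC, with every unadjusted p above 0.05.

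In Hoxd, Hoxd8 (chr2:74704615-74707933) was 1.64, 1.00, 1.21, 1.11 and 1.04 in water, 1.61, 1.38, 1.15, 1.13 and 1.46 in low PAC and 1.01, 1.21, 1.20, 1.37 and 1.69 in high PAC. The groups overlapped throughout. Against water, the log2 fold change was 0.08 ± 0.19 in high PAC (adjusted p = 0.868, exact permutation p = 0.524) and 0.07 ± 0.19 in low PAC (adjusted p = 0.988, exact permutation p = 0.318). Hoxd4 (chr2:74711929-74729160), which patterns the neck vertebrae, was 1.24, 0.79, 0.95, 0.77 and 0.99 in water, 1.31, 1.33, 0.98, 1.06 and 0.67 in low PAC and 1.02, 1.42, 0.77, 0.95 and 1.66 in high PAC. These also overlapped. In log2 terms Hoxd4 differed from water by 0.20 ± 0.24 in high PAC (adjusted p = 0.693, exact permutation p = 0.294) and 0.12 ± 0.24 in low PAC (adjusted p = 0.984, exact permutation p = 0.5). Hoxd3, at 3 to 28 estimated read pairs a mouse, had 0.10 (95% interval -0.74 to 0.93) and 0.28 (-0.56 to 1.11), so a doubling was within its interval in low PAC.

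Polymer size was compared directly, at the same dose and time, in high PAC against low PAC. Of 21 members, 0 had an adjusted or an unadjusted p under 0.05, beside 3.89% of all genes with an unadjusted p under 0.05, and the exact permutation test gave 0 under 0.05, beside 4.50%. The lowest exact permutation p was 0.0635, for Hoxa5, and 12 members had a fold change above 0, beside 51.4% of genes. DESeq2 also called 0 members at an adjusted or an unadjusted p of 0.05. The largest difference was that of Hoxc9, a log2 fold change of 0.34 with a 95% interval of -0.15 to 0.83. For Hoxb5 it was 0.20 (-0.13 to 0.54), for Hoxb8 0.19 (-0.41 to 0.78) and for Hoxb9 0.14 (-0.79 to 1.07). Over all members the intervals reached from -0.999, for Hoxd3, to 1.07, for Hoxb9. Their median width was 0.89, so the size of a difference between the PAC fractions that falls within the interval depends on the member.

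The difference between groups depended in size on water mice 4 and 5, the mice with the highest position scores. Without them, a setting chosen after the values were seen, 8 members had an unadjusted p under 0.05 in high PAC against water and 6 in low PAC against water, beside 6.19% and 3.78% of genes with the higher mean in PAC. The log2 fold change of Hoxb9 was then 0.72 (adjusted p = 0.261) in high PAC and 0.58 (adjusted p = 0.695) in low PAC, in place of 1.30 and 1.16. That of Hoxb8 was 0.70 (adjusted p = 0.236) and 0.51 (adjusted p = 0.695). That of Hoxb7 was 0.52 (adjusted p = 0.29) and 0.27 (adjusted p = 0.782), that of Hoxb6 0.50 (adjusted p = 0.299) and 0.38 (adjusted p = 0.713), that of Hoxb4 0.28 (adjusted p = 0.331) and 0.21 (adjusted p = 0.73) and that of Hoxb3 0.44 (adjusted p = 0.279) and 0.45 (adjusted p = 0.695). Hoxb4 and Hoxb6 in high PAC, and Hoxb4 and Hoxb6 to Hoxb9 in low PAC, then had an unadjusted p above 0.05. Hoxb5 stayed at 0.82 (adjusted p = 0.21) and 0.61 (adjusted p = 0.695), and Hoxc9 at 1.16 (adjusted p = 0.21) and 0.82 (adjusted p = 0.695). Hoxa5 in high PAC (0.74, adjusted p = 0.234) and Hoxa3 (0.66, adjusted p = 0.695) and Hoxc4 (0.35, adjusted p = 0.695) in low PAC had an unadjusted p under 0.05 without these mice and not with them. Leaving out water mice 1 and 3, those with little smooth muscle signal, gave Hoxc8 0.22 (adjusted p = 0.674) and 0.30 (adjusted p = 1.00) and Hoxc5 -0.43 (adjusted p = 0.628) in high PAC. Hoxc8 then had an unadjusted p above 0.05 in both comparisons and Hoxc5 one under 0.05, with the lower mean in high PAC, while the fold changes of Hoxb3 to Hoxb9 were larger in both comparisons with water. Members without an unadjusted p under 0.05 could then change sign. Hoxa5 had 0.11 (adjusted p = 0.87) in high PAC and -0.11 (adjusted p = 1.00) in low PAC, in place of 0.47 and 0.24. In high PAC Hoxc6 had -0.12 (adjusted p = 0.854) and Hoxa3 -0.09 (adjusted p = 0.926), in place of 0.09 and 0.11.

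The level of each member was also set against the tissue scores between mice of the same group. Slopes were not compared between members or between scores. With position score and group in 1 model, 7 members had a negative slope at an unadjusted p under 0.05, Hoxb3 to Hoxb9, beside 4.80% of genes, and 3 had a positive one, Hoxa3, Hoxa7 and Hoxc4, beside 4.42%. A negative slope means a lower level in pieces with more proximal and less distal signal. Hoxb6 alone passed after adjustment, with a slope of -0.85 ± 0.16 log2 units per unit of score (adjusted p = 0.0371), beside 0.264% of genes. The steepest slope was that of Hoxb9, -1.26 ± 0.31 (adjusted p = 0.13), and it was -0.82 for Hoxb7, -0.71 for Hoxb8, -0.48 for Hoxb3, -0.38 for Hoxb5, -0.31 for Hoxb4 and -0.02 for Hoxb2. Hoxc9 had -0.34 (adjusted p = 0.71), and Hoxa3, Hoxa7 and Hoxc4 had 0.39, 0.52 and 0.27. Without water mice 4 and 5 the slope of Hoxb6 was -0.60 (adjusted p = 0.268) and that of Hoxb9 -0.67 (adjusted p = 0.428). In that fit 4 of 22 members kept a negative slope at an unadjusted p under 0.05, with no share over all genes given here. The call of Hoxb6 held in 6 of 15 fits that left out 1 mouse, and was lost without water mouse 2, 4 or 5, low PAC mouse 1, 2, 3 or 5, or high PAC mouse 2 or 4.

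With the position score as a covariate, the log2 fold change of Hoxb9 was 0.91 (adjusted p = 0.215) in high PAC against water and 0.65 (adjusted p = 0.772) in low PAC against water. Hoxb5 had 0.77 (adjusted p = 0.109) and 0.51 (adjusted p = 0.702), and Hoxc9 1.29 (adjusted p = 0.109) and 0.91 (adjusted p = 0.702). In low PAC, Hoxb9, Hoxb4 (0.21, adjusted p = 0.795), Hoxb6 (0.29, adjusted p = 0.795) and Hoxb7 (0.32, adjusted p = 0.828) no longer had an unadjusted p under 0.05. Hoxa3 (0.67, adjusted p = 0.702) and Hoxc4 (0.33, adjusted p = 0.74) in low PAC, and Hoxa5 (0.64, adjusted p = 0.231) and Hoxa7 (0.38, adjusted p = 0.278) in high PAC, had one with the covariate and not without it. In all, 11 members passed that threshold in high PAC, beside 16.9% of genes in either direction, and 7 in low PAC, beside 6.55%. The position score itself was 0.36 ± 0.54 in water, -0.24 ± 0.60 in low PAC and -0.12 ± 0.37 in high PAC, so it was highest in water, where Hoxb3 to Hoxb9 were lowest. Beyond this covariate and the fits without water mice 4 and 5, its part in their difference was not tested.

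**Figure D4:**
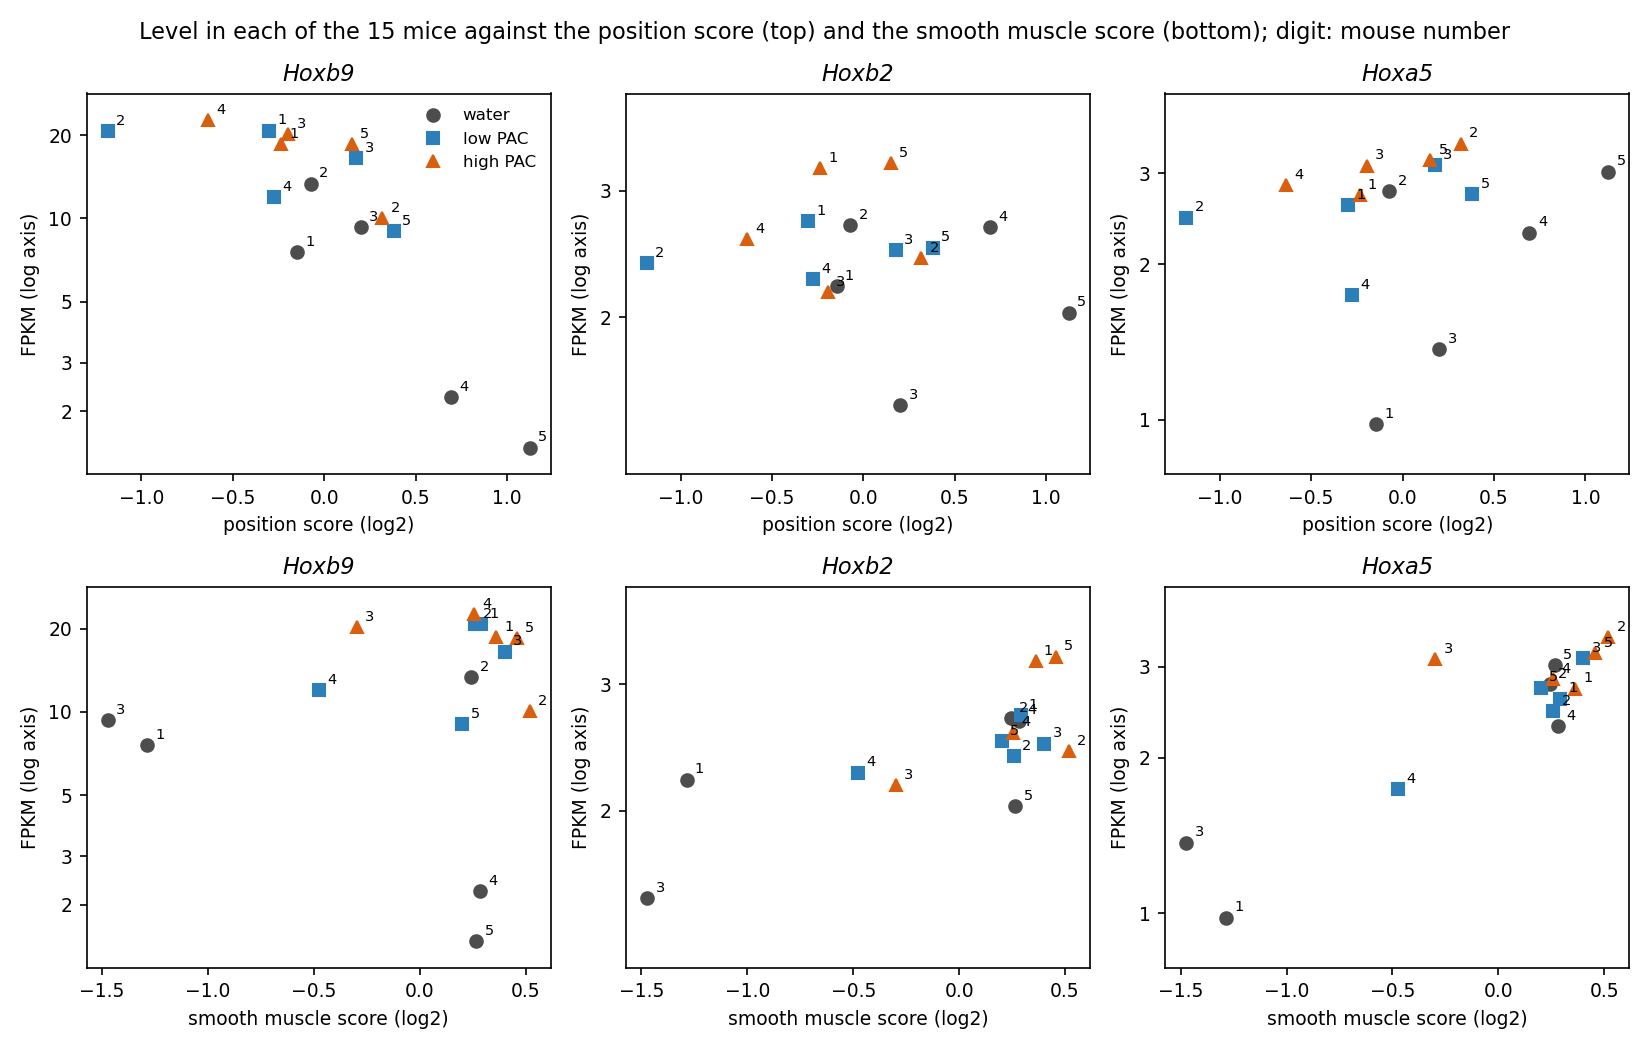
FPKM of Hoxb9, Hoxb2 and Hoxa5 (y axes, logarithmic) in each of the 15 mice against the position score (top) and the smooth muscle score (bottom), both in log2 units, with mice numbered within their group. Hoxb9 is lowest in water mice 4 and 5, which have the highest position scores, and Hoxa5 is lowest in water mice 1 and 3, which have the lowest smooth muscle scores.

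Smooth muscle was examined in the same way. The slope on the smooth muscle score (Acta2, Myh11, Des and 10 others) was 0.62 ± 0.11 for Hoxa5 (adjusted p = 0.00229) and 0.40 ± 0.09 for Hoxc6 (adjusted p = 0.0173), 2 of 21 members, a share near the background of 6.25% of all genes. Hoxa4 (0.45), Hoxb2 (0.25) and Hoxc8 (0.22) had an unadjusted p under 0.05 too, all positive, so that 5 members passed unadjusted, beside 10.4% of genes with a positive slope. Hoxb3 to Hoxb9 had slopes from -0.32 to -0.06 with every unadjusted p above 0.05, and their sign was not stable. The slopes of Hoxb3 to Hoxb5 and Hoxb7 to Hoxb9 were 0.04 to 0.22 without water mice 1 and 3 and 0.07 to 0.27 without water mice 4 and 5. Without water mouse 2, in contrast, 4 of 21 members, Hoxb6 to Hoxb9, had a negative slope at an unadjusted p under 0.05. The share of all genes with a negative slope in that fit is not given here. The calls of Hoxa5 and Hoxc6 were lost without water mice 1 and 3, where Hoxa5 had 0.48 (adjusted p = 0.191) and Hoxc6 0.50 (adjusted p = 0.166). Hoxa5 kept its call in 15 of 15 fits that left out 1 mouse and Hoxc6 in 13, losing it without water mouse 3 or 4. With the smooth muscle score as a covariate, the log2 fold change of Hoxa5 in high PAC against water was 0.16 (adjusted p = 0.635) in place of 0.47 and that of Hoxc8 0.19 (adjusted p = 0.461) in place of 0.33, while Hoxb9 had 1.53 (adjusted p = 0.218). In that fit Hoxc8 no longer had an unadjusted p under 0.05 in high PAC and Hoxc5 had one, with the lower mean in high PAC (-0.42, adjusted p = 0.26). Counting both directions, 9 members had an unadjusted p under 0.05 in each comparison with water, beside 16.3% of genes in high PAC and 3.07% in low PAC.

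Lymphoid tissue and epithelium gave 0 adjusted calls. On the B cell score the median slope was -0.04 over the members and -0.0009 over all genes, and Hoxa4 (-0.12), Hoxc6 (-0.08) and Hoxc8 (-0.05) had an unadjusted p under 0.05, beside 4.41% of genes with a negative slope and 4.88% of genes with an adjusted p under 0.05. On the epithelium score, whose range over the 15 mice was -0.13 to 0.17, Hoxb6, Hoxb8 and Hoxd8 had positive and Hoxa5 and Hoxa7 negative slopes at an unadjusted p under 0.05, beside 6.54% and 4.70% of genes. DESeq2 gave 0 adjusted calls on both scores as well.

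**Figure D5:**
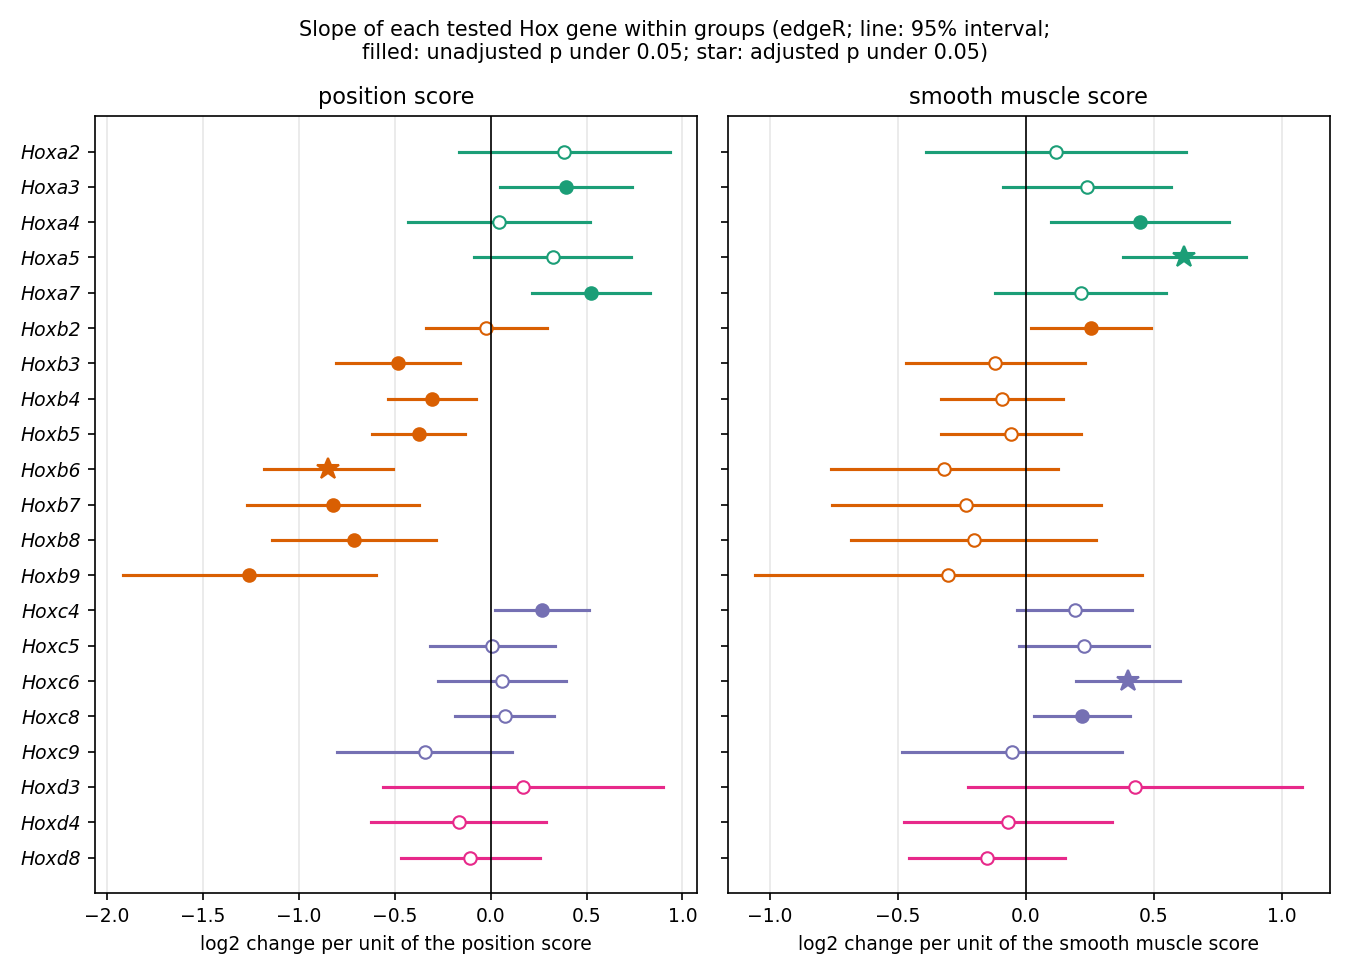
Slope of each tested Hox gene within groups on the position score (left) and the smooth muscle score (right), in log2 units per unit of score with the 95% interval, coloured by cluster, filled for an unadjusted p under 0.05 and starred for an adjusted p under 0.05. Hoxb3 to Hoxb9 lie below 0 on position with Hoxb6 starred, and Hoxa5 and Hoxc6 are starred on smooth muscle.

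Ratios within a mouse compare the ends of the Hoxb cluster without regard to how a library was scaled. Log2 of Hoxb9 over Hoxb2 was 1.78, 2.31, 2.63, -0.25 and -0.46 in water mice 1 to 5, 2.94, 3.13, 2.74, 2.41 and 1.85 in low PAC mice, and 2.53, 2.05, 3.22, 3.14 and 2.50 in high PAC mice. Water mice 4 and 5 were the only ones with less Hoxb9 than Hoxb2 per length. Means were 1.20 ± 1.45, 2.61 ± 0.50 and 2.69 ± 0.49. Over Hoxb4 the ratios of Hoxb9 were 0.49 ± 1.14, 1.62 ± 0.31 and 1.72 ± 0.32. These ratios were chosen with the levels known and were not tested.

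No partner or regulator of HOX proteins passed an adjusted p of 0.05 in any comparison. Of the TALE cofactors, Pbx3 had a log2 fold change of 0.31 (adjusted p = 0.356) and Meis1 0.29 (adjusted p = 0.487) in high PAC. Like Hoxa5 and Hoxc6, Meis2 (0.78), Meis1 (0.55) and Pbx3 (0.39) had a slope on the smooth muscle score with an adjusted p under 0.05. On the position score 0 of the 9 cofactors tested had an adjusted or unadjusted p under 0.05. Cdx1 and Cdx2, the intestinal CDX genes, were at 87.5 ± 8.33 and 67.4 ± 6.37 FPKM in water and 105 ± 20.4 and 72.3 ± 9.84 in high PAC, with log2 fold changes of 0.17 (adjusted p = 0.494) and 0.01 (adjusted p = 0.984). Of the other 6 ParaHox and Evx genes, 5 were not listed in any mouse and Pdx1 had too few counts to be tested.

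Of 12 tested genes of the retinoic acid pathway, 3 had an unadjusted p under 0.05 in high PAC against water, all with the lower mean in high PAC, beside 10.4% of genes. They were the retinoic acid synthesizing enzyme Aldh1a3 (-0.65 ± 0.15, adjusted p = 0.133 by edgeR), the retinol dehydrogenase Rdh10 (-0.23, adjusted p = 0.291) and the receptor Rara (-0.23, adjusted p = 0.328). Aldh1a3 was 10.7 ± 0.542 FPKM in water, 8.53 ± 2.28 in low PAC and 7.28 ± 0.758 in high PAC. Of 21 Polycomb genes, 0 had an unadjusted p under 0.05 in either comparison with water. The lowest were those of the H3K27 methyltransferases Ezh1 (-0.15, adjusted p = 0.341) and Ezh2 (0.21, adjusted p = 0.365) and of Cbx8 (-0.33, adjusted p = 0.378). Of 11 Trithorax and histone activating genes, the H3K27 demethylase Kdm6a (-0.21, adjusted p = 0.257) and Dpy30 (0.23, adjusted p = 0.309) passed unadjusted in opposite directions in high PAC, followed by Psip1 (0.24, adjusted p = 0.352). The 22 noncoding genes of the Hox clusters looked for, among them Hotairm1, Hottip and the Mir10 and Mir196 genes, were in 0 of the tables.

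Markers of the tissues that express Hox genes were read beside these results. The 13 smooth muscle genes all had a log2 fold change above 0 in both comparisons with water (medians 0.42 and 0.32), with 0 at an unadjusted p under 0.05. The lowest p in high PAC was that of Tagln (0.48, adjusted p = 0.371), Cnn1 (0.53, adjusted p = 0.417) and Acta2 (0.42, adjusted p = 0.46). Their summed FPKM was 348 to 1120 in water, 701 to 1219 in low PAC and 825 to 1340 in high PAC, with medians of 1059, 1074 and 1191. Water mice 1 and 3 set the low end, and the median smooth muscle score was 0.24 in water, 0.26 in low PAC and 0.36 in high PAC. All 11 enteric neuron and glia genes were also above 0 in both (medians 0.57 and 0.35), and 3 of them, S100b (0.77, adjusted p = 0.248) and Tubb3 (0.79, adjusted p = 0.285) included, had an unadjusted p under 0.05 in high PAC, beside 4.37% of genes with the higher mean there (10.5% with upper-quartile scaling). The sums of the 11 genes were 10.9 to 30.9, 22.8 to 32.6 and 29.3 to 38.0 FPKM, and water mice 1 and 3 had the lowest enteric scores too (-0.99 and -1.21). The 6 tested mesothelium genes were above 0 in both (medians 0.82 and 0.56), with 0 under 0.05, and Msln had 1.16 (adjusted p = 0.379), Gpm6a 0.73 (adjusted p = 0.446) and Wt1 0.96 (adjusted p = 0.522) in high PAC. Their sums were 7.94 to 24.5, 12.1 to 26.2 and 13.3 to 33.2 FPKM, and Muc16 was not listed. Beyond the smooth muscle covariate above, the part of these tissues in the Hoxb differences was not tested.

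Among the proximal markers, 3 of 10 tested had an unadjusted p under 0.05 in high PAC against water, all with the lower mean in high PAC, Cyp3a11 (-1.25, adjusted p = 0.215), Rbp2 (-0.52, adjusted p = 0.225) and Apoc3 (-0.62, adjusted p = 0.292), and 2 of 10 in low PAC against water, beside 10.4% and 2.21% of genes. The medians of this list were -0.49 and -0.32. In high PAC 2 of the 10 went the other way, Fabp1 (0.46, adjusted p = 0.63) and Slc40a1 (0.38, adjusted p = 0.585). Of 7 distal markers 0 had an unadjusted p under 0.05 in either comparison, and the lowest p in high PAC was that of Fabp6 (0.35, adjusted p = 0.356), Amn (-0.21, adjusted p = 0.421) and Cubn (-0.33, adjusted p = 0.551). The distal medians were -0.05 in high PAC, with 2 of 7 genes above 0, and 0.08 in low PAC, with 5 of 7. The proximal score was 0.30 ± 0.23 in water, -0.15 ± 0.59 in low PAC and -0.15 ± 0.35 in high PAC. The distal score was -0.06 ± 0.35, 0.09 ± 0.04 and -0.03 ± 0.24. Of 12 epithelial genes, 9 had a log2 fold change below 0 in high PAC against water (median -0.12), though mean FPKM of Krt8, Lgals4 and Cldn3 among them was higher in high PAC. Of the 9, 3 had an unadjusted p under 0.05, Krt20 (-0.42, adjusted p = 0.194), Ezr (-0.39, adjusted p = 0.274) and Vil1 (-0.33, adjusted p = 0.29), beside 10.4% of genes with the lower mean there. Fibroblast, endothelium, adipocyte and B cell lists had medians of 0.06, -0.02, 0.65 and 0.13 in high PAC, with 1 of 11 fibroblast genes (Dpt, 0.33, adjusted p = 0.302) and 0 of the 8, 6 and 10 others at an unadjusted p under 0.05. In low PAC against water their medians were 0.18, -0.075, 0.59 and -1.26, with 1 of the 8 endothelium genes and 0 of the others at an unadjusted p under 0.05. All 10 B cell genes were below 0 in low PAC against water and above 0 in high against low PAC (median 1.36), with 0 at an unadjusted p under 0.05 in either, and the B cell score was split within every group.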

How the data were processed

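RNA was sequenced from tissue of 15 mice, 1 library each. The submitters' processing notes name HISAT, DESeq2 and mm10, whereas the methods of the study name SOAPnuke for read filtering, Bowtie2 for alignment to mm10 and NOIseq for testing. The counter and the strandedness are not given in the sources used here. The authors deposited, per mouse and gene, an estimated count that need not be whole (88.6 to 89.5% of values were whole), with no normalization. The deposited FPKM values were scaled by the authors for transcript length and library size. Genes not listed for a mouse were set to 0.

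After rounding, the estimated counts went into edgeR 4.0.16 (TMM scaling, filterByExpr, quasi-likelihood test, 1 model of 15 mice and 3 groups), with Benjamini-Hochberg adjustment over 14386 genes. NOIseq, the study's tool, was not installed. Libraries of 15963086 to 17903886 counts leave Hox genes with few reads imprecise. On FPKM, as log2(FPKM + 0.1), all splits of 5 against 5 mice gave a two-sided exact p. Tissue scores were added to the model to give slopes within groups. The edgeR step was tested on simulated data. Members followed from their symbols, full statistics went to members with an unadjusted p under 0.05 and to the top 2 of each cluster by mean FPKM, and, of the other lists, the 3 genes with the lowest unadjusted p in high PAC against water were named. The members and lists were chosen with earlier results of these data known. Mice are separate animals by the labels. A few genes are not reported here. Alternatives were DESeq2 1.42.0, limma 3.58.1, other scaling, no filter, a replicate block, fewer groups, tissue scores as covariates and mice left out.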

Additional observations from a re-analysis of the deposited data

Results flagged for a closer look

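Hoxb7 in high PAC mouse 2 stood apart from its group, at 7.04 FPKM against 12.22 to 13.89 in the other 4 mice. Its gap to the nearest of them was 0.756 of the range of the group, above Dixon's critical value of 0.71 for 5 samples. It was 1 of 63 groups of 5 mice examined (21 genes in 3 groups), and chance flags about 5% of groups.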

How the results depend on the processing

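The log2 fold changes of Hoxb3 to Hoxb9, Hoxc8 and Hoxc9 against water stayed above 0 under every alternative run. Some members without an unadjusted p under 0.05 changed sign, among them Hoxa5 in low PAC, from 0.24 to -0.11, and Hoxc6 in high PAC, from 0.09 to -0.12, without water mice 1 and 3, Hoxc6 in high PAC, to -0.16, with the smooth muscle covariate, and Hoxd8 in high PAC, from 0.08 to -0.03, without water mice 4 and 5. The number of Hox genes with an adjusted p under 0.05 in high PAC against water, 0 with edgeR, was 3 with DESeq2 (Hoxb5, Hoxb8 and Hoxc9), 2 with limma at a pseudocount of 0.1 and 2 at a pseudocount of 1, and 0 to 2 with 1 mouse left out (Hoxc9 without water mouse 2, Hoxb5 and Hoxc9 without high PAC mouse 2). Of all genes, DESeq2 called 112 there and limma 9 at each pseudocount, against 2 with edgeR. With 1 mouse left out, edgeR called 4 of all genes without water mouse 2 and 11 without high PAC mouse 2. Without a filter on low counts 1 of 29 members, Hoxd10, had an unadjusted p under 0.05 in high PAC against low PAC. Of 17731 genes in that fit, 404 passed higher and 286 lower. Hoxd10 reached at most 3 estimated pairs in any mouse and was at 0 in every high PAC mouse. In the same fit Hoxd10 also passed in high PAC against water, lower in high PAC. Hoxa10, at most 2 pairs a mouse, passed in low PAC against water, higher in low PAC. The members that varied with the position score, 1 in all, were 4 with DESeq2 (Hoxb6 to Hoxb9), 0 without water mice 4 and 5 and 0 to 1 with 1 mouse left out. Those that varied with the smooth muscle score, 2 in all, were 1 without water mice 4 and 5, 0 without water mice 1 and 3, and 1 to 3 with 1 mouse left out. For the B cell score, 0 in all, the range was 0 to 2, reached without low PAC mouse 3. The share of all genes called on these 3 scores is not given here for DESeq2 or for the fits with mice left out. These counts of members therefore have no background beside them. The exact permutation test with 1 mouse left out gave 3 to 9 members in low PAC against water (8 in all; 3 without low PAC mouse 3) and 0 to 2 in high PAC against low PAC. The cause was not tested.

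Replicate numbers did not pair the mice: deviations of same-numbered mice had a mean correlation of 0.05 (-0.31 to 0.45 over 15 pairs), and 5 of 30 best matches shared a number. With the replicate block, 0 members had an adjusted and 9 an unadjusted p under 0.05 in high PAC against water, and 10 an unadjusted one in low PAC against water. All of these were higher in PAC. Of 14386 genes, 562 passed unadjusted higher (3.91%) and 1278 lower in high PAC, and 190 higher (1.32%) and 281 lower in low PAC. With the block 1 member varied with the smooth muscle score and 0 with the position score. Upper-quartile scaling moved the split of unadjusted calls over all genes in high PAC against water from 628 higher and 1500 lower to 1505 and 816, while all 9 members stayed higher. Depth limits members with few reads such as Hoxc9 and Hoxd3, and 5 mice a group limit what can be called.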
